A study of Mus musculus with 18 samples.

Results

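Spreading depolarization (SD) is a slow wave in which neurons and glia of the grey matter lose their membrane potential almost completely before they recover, and it underlies the migraine aura. The comparison described here sets the cortex of the hemisphere in which light had set off SD against the opposite, contralateral cortex of the same mouse. It comprises all 13099 genes listed in the authors' deposited table of this comparison, measured in 6 of the 18 libraries of the series, a left and a right library from each of 3 mice. No gene was chosen for how it behaved. The only entry condition was the authors' own: the lowest value that the higher of both group means takes in the table is 0.5 FPKM (fragments per kilobase of transcript, scaled to the mapped fragments of the library).

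The mice were healthy C57BL/6 females of 7 to 8 weeks, heterozygous for Thy1-ChR2-YFP, a transgene in which the neuronal Thy1 promoter drives the light-gated cation channel channelrhodopsin-2 fused to a yellow fluorescent protein. Light of 2 mW for 20 s set off each wave, and 4 waves followed each other at intervals of 30 min over 2 h. The SD library is always the left cortex and the contralateral library the right one, so side, light and SD cannot be told apart in this comparison. Every library came from a mouse with the transgene, the contralateral cortex included. A further 3 sham mice, labelled with the same genotype, sex and age, gave 1 library each, with no description of what the sham procedure was or which side was taken. The Thy1 level of sham replicate 2 goes against its labelled genotype, as given with the sham comparison. For comparison, 3 C57BL/6 females without a listed transgene had the same number of waves set off by focal KCl, again with an SD and a contralateral library per mouse. Depth is unknown, since the files hold no read counts. The listed FPKM summed to 217442 to 225758 per library, 11694 to 11864 genes reached 1 FPKM, and the libraries correlated pairwise at 0.978 to 0.989 in log2(FPKM + 1) across genes. The time between the last wave and tissue collection is not given in the sources used here.

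Neurons answer strong depolarization and calcium entry with immediate early genes, which are transcribed within minutes from promoters already primed for it and need no new protein. Their products are mostly transcription factors such as Fos and Egr1, synaptic effectors such as Arc, and phosphatases that switch the MAP kinase pathway off again. In the cortex they mark recently active neurons, and SD is a known strong inducer of them.

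Of the 13099 genes, 49 were called (0.374%), 44 of them higher in the SD hemisphere (0.336%) and 5 lower (0.0382%). Calls are at an adjusted p under 0.05 from limma, with the mouse as a block and Benjamini-Hochberg adjustment over all listed genes, and differences are SD minus contralateral on the log2(FPKM + 0.5) scale. In all 49 genes the difference had the same sign in the 3 mice and the FPKM of both hemispheres did not overlap. Over all listed genes, 13.4% were higher in all 3 mice, 22.1% were lower in all 3, and 15% did not overlap. The 49 genes were called on these same libraries, so their shared sign and lack of overlap are a description and no separate support. At an unadjusted p under 0.05, 570 genes were higher (4.35%) and 891 lower (6.8%), and this balance turned to 715 higher and 641 lower after median-of-ratios scaling. The median difference over all genes was -0.023, and the called rises and falls number 49 and 5 with that scaling.

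**Figure D1:**
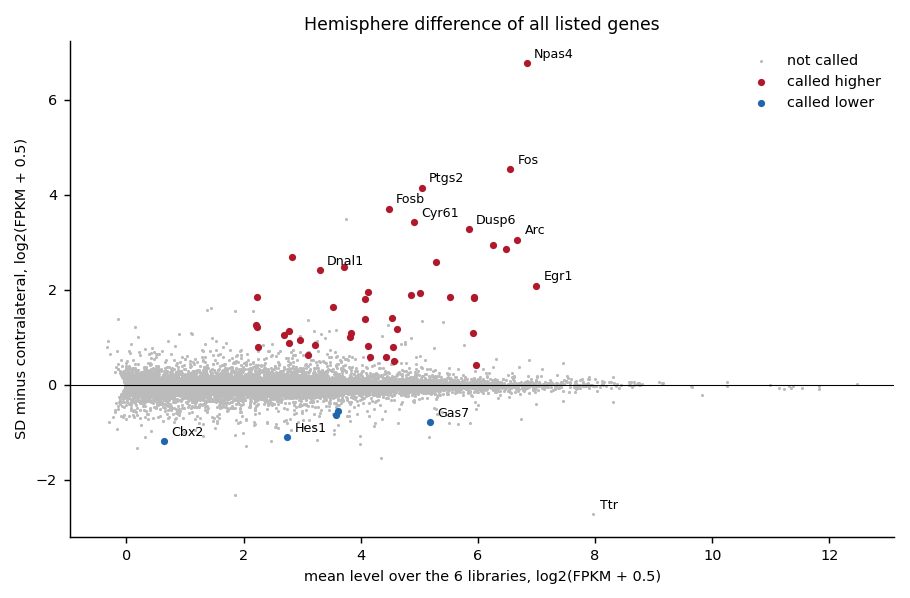
Each point is 1 of the 13099 listed genes, with its mean level over the 6 libraries on the x axis and the fitted SD minus contralateral difference on the y axis, both in log2(FPKM + 0.5). The 44 genes called higher, in red, reach 6.76 (Npas4), the 5 called lower, in blue, reach -1.19 (Cbx2), and Ttr, at -2.72, was not called.

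Of the 44 rises, 22 were also called when any 1 of the 3 mice was left out, and the other 22 lost the call in at least 1 such fit. Without mouse 1, 2 or 3 the number of rises called again was 25, 29 and 22. The 22 that were called in each of these fits were the 18 largest rises and Ier2, Adrb1, Klf6 and Plk2. None of the 5 falls was called in every such fit: 1 remained without mouse 1, 1 without mouse 2 and 0 without mouse 3.

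Transcription factors that respond to neuronal activity stood at the top. Npas4, a factor found almost only in neurons and induced by calcium entry (ENSMUSG00000045903.8, GRCm38 chr19:4984355-4989971), had 181, 240 and 256 FPKM in the SD hemispheres of mice 1 to 3, against 1.38, 1.56 and 1.75 FPKM in the contralateral ones. Every SD library was thus far above every contralateral one, and the fitted difference was 6.76 (SE 0.069, adjusted p = 8.75e-05), 109-fold on that scale. Its differences within mouse 1, 2 and 3 spanned 0.28.

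Fos, the defining subunit of the AP-1 factor (chr12:85473890-85477273), was at 137, 193 and 207 FPKM in SD and at 7.14, 6.69 and 7.64 FPKM in contralateral cortex, a difference of 4.53 (SE 0.12, adjusted p = 0.00138). Its relative Fosb had 33.1, 43.1 and 46.9 FPKM in SD hemispheres and 2.83, 2.19 and 2.98 FPKM in contralateral ones, a difference of 3.71 (SE 0.14). Junb, a Jun subunit that pairs with Fos proteins, had 142, 149 and 179 FPKM in SD cortex, against 19.1, 23.0 and 21.5 FPKM, a difference of 2.85 (SE 0.075). For these AP-1 subunits the lowest SD library was above the highest contralateral one by a wide margin. Jun itself was at 34.9, 53.4 and 52.6 FPKM in SD and 19.1, 17.0 and 17.7 FPKM in contralateral cortex, a difference of 1.34 that missed the threshold (adjusted p = 0.108), with mouse 1 lowest in SD.

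The orphan nuclear receptor Nr4a1, also an early response gene, stood at 113, 132 and 161 FPKM in SD, against 13.5, 18.2 and 19.9 FPKM in contralateral cortex, a difference of 2.94 (SE 0.051, adjusted p = 0.000337). Of its family members, Nr4a3 differed by 1.13 (adjusted p = 0.0657) and Nr4a2 by 0.22 (adjusted p = 0.404), and neither was called. The zinc finger factor Egr1 had 193, 195 and 229 FPKM in SD and 46.5, 44.7 and 52.9 FPKM in contralateral cortex, and its difference of 2.09 (SE 0.033) varied by 0.07 between mice. Among the called genes only Cited4 and Ier2 had a narrower span. Egr2, at 11.9, 9.03 and 14.3 FPKM in SD and 1.53, 1.18 and 1.41 FPKM in contralateral cortex, differed by 2.69, and Egr4, at 60.0, 59.6 and 80.2 FPKM in SD against 12.4, 8.80 and 11.2 FPKM, by 2.57. Egr3, which is also induced by activity, was already at 27.3, 39.6 and 49.2 FPKM in contralateral cortex and at 67.1, 56.3 and 81.7 FPKM in SD, a difference of 0.84 that was not called (adjusted p = 0.217).

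Of the 34 listed activity-dependent transcription factors, 12 were called higher and 0 lower, and 28 were higher at an unadjusted p under 0.05. Of all genes, 0.336% were called higher and 4.35% were higher at that unadjusted p. The median difference of the list was 0.77, against -0.023 over all genes, and its medians in mice 1, 2 and 3 were 0.82, 0.73 and 0.79. This list, like the others, was chosen with earlier results of these data known, so its counts are a description. The other called members were Ier2 at 1.80, the Krüppel-like factor Klf6 at 1.39, the ADP-ribosyltransferase Tiparp at 0.83 and the bHLH repressor Bhlhe40 at 0.51. Ier2 had 19.1, 27.4 and 30.5 FPKM in SD and 5.21, 7.48 and 8.21 FPKM in contralateral cortex, so its level varied between mice on both sides while the ratio stayed within a span of 0.06. Klf2, a relative of Klf6 that is best known from endothelium, was at 5.08, 7.18 and 6.8 FPKM in SD and at 6.16, 8.89 and 9.17 FPKM in contralateral cortex, a difference of -0.32 that was not called. Klf10 ran against the list, at 8.05, 6.16 and 6.01 FPKM in SD and 9.98, 9.01 and 9.17 FPKM in contralateral cortex, a difference of -0.46 that was not called (adjusted p = 0.182).

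**Figure D2:**
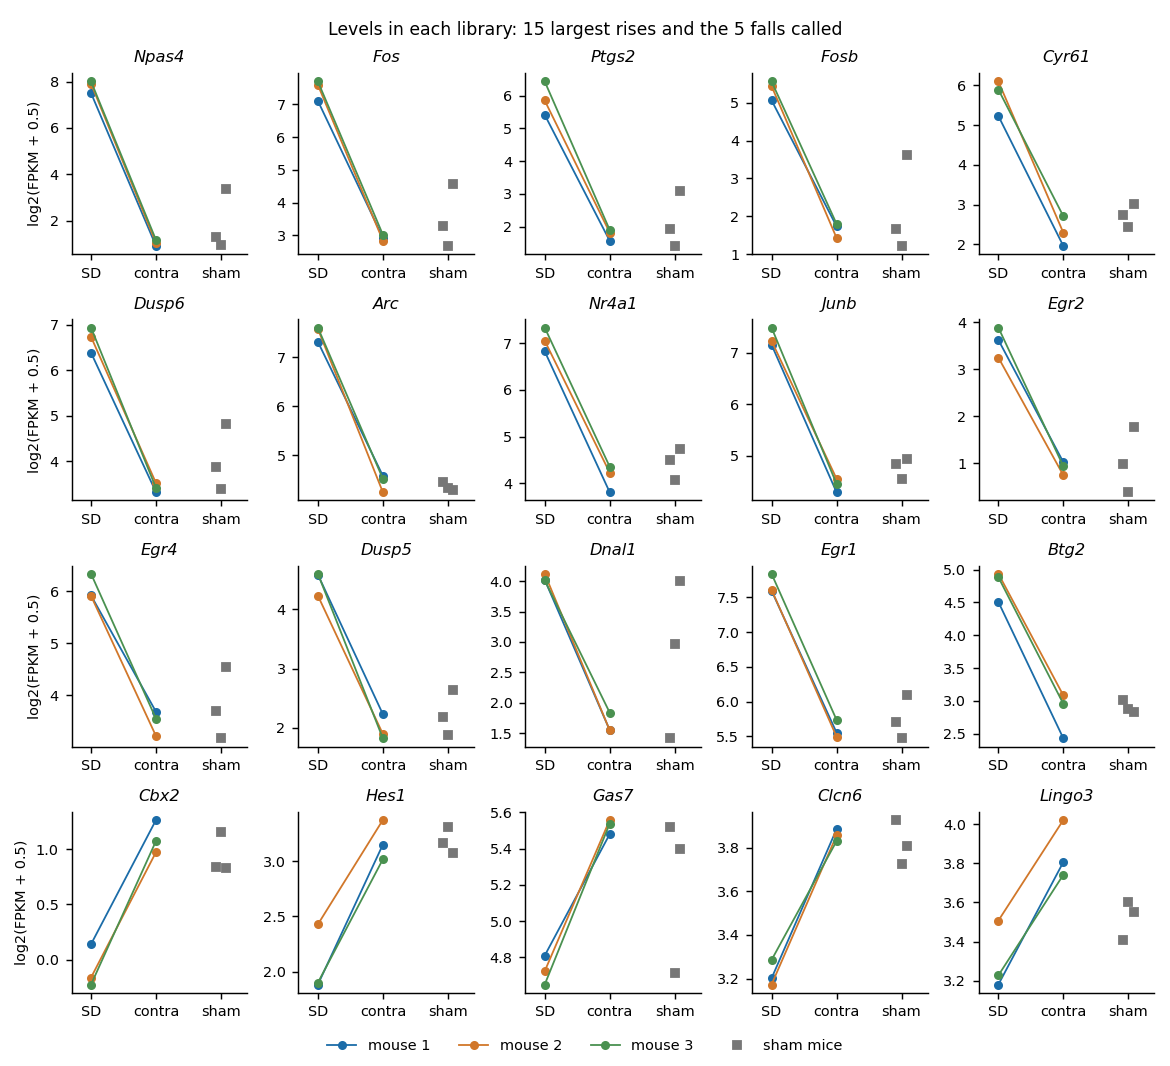
Levels in log2(FPKM + 0.5) of the 15 largest rises (top 3 rows) and the 5 falls (bottom row), with a line from the SD to the contralateral library of each of the 3 mice and grey squares for the 3 sham mice. Each panel has its own y axis. SD and contralateral points do not overlap in any panel, and 1 of the sham points of Npas4, Fos and Fosb stands above the other 2.

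Many early response promoters carry the cAMP response element (CRE), bound by CREB, or the CArG box, bound by serum response factor. The RefSeq promoter table (GRCm38.p6) held 250 bases before to 50 bases after the start of 33 of the 44 rises, which is 75.0% and under the 80% set as the minimum for comparing shares, so such a comparison is void. Arc, Egr1, Trib1, Nptx2, Ier2, Dusp4 and Bhlhe40 were among the rises without a promoter there, and sites outside the window were not searched. As a description, the full CRE TGACGTCA stood on either strand in 4 of the 33 and in 3.31% of the 10301 listed genes with a promoter, and its core TGACG, which the full CRE contains, in 19 of the 33 and in 32.0% of all. The AP-1 site TGANTCA was in 0 of the 33 and 4.36% of all, the CArG box in 1 and 1.29%, and the EGR site GCGTGGGCG in 1 and 1.20%. That core was found in Npas4, Fos, Fosb, Junb, Nr4a1, Egr4 and Ptgs2, among others. The 5 promoters of rises with a full CRE or a CArG box are shown, to give the place of the match in each. They hold the 250 bases before the start in 5′ to 3′ direction of the gene, with the CRE in capitals for Btg2, Dusp1, Arl4d and Plk2 and 2 adjoining CArG boxes in capitals for Dusp5.
Dusp5: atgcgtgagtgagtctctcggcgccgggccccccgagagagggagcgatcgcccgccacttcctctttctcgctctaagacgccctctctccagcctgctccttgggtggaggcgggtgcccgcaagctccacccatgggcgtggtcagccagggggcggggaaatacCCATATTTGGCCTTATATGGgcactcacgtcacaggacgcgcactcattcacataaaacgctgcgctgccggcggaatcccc
Btg2: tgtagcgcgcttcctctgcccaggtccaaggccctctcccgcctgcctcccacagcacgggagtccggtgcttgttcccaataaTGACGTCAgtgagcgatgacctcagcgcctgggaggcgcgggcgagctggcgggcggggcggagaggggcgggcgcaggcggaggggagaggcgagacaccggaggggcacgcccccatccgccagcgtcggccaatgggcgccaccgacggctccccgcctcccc
Dusp1: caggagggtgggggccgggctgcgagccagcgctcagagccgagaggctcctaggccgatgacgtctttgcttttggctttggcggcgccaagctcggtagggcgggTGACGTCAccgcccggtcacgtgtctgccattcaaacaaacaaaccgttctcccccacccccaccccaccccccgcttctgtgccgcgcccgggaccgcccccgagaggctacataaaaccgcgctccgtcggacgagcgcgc
Arl4d: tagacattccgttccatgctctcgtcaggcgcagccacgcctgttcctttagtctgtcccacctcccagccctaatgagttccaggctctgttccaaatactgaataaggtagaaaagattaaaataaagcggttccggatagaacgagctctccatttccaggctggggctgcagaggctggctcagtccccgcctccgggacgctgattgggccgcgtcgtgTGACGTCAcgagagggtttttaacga
Plk2: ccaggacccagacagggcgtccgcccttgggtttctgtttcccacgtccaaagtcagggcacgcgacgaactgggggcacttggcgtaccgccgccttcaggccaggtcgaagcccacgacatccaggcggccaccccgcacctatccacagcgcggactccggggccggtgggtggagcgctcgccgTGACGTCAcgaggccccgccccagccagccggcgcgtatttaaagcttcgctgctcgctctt
The stretches lie at chr19:53528895-53529144 (plus strand, Dusp5), chr1:134079156-134079405 (minus strand, Btg2), chr17:26508473-26508722 (minus strand, Dusp1), chr11:101665291-101665540 (plus strand, Arl4d) and chr13:110394794-110395043 (plus strand, Plk2). The CRE begins at base -166 of Btg2, -143 of Dusp1, -26 of Arl4d and -62 of Plk2, counted back from the RefSeq start. A match is a run of letters and says nothing of binding in these mice.

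Genes that act at the synapse or in signalling also rose. Arc, which drives the removal of AMPA receptors from synapses (chr15:74669083-74672570), had 159, 191 and 194 FPKM in SD and 23.4, 18.5 and 22.5 FPKM in contralateral cortex, a difference of 3.05 (SE 0.12, adjusted p = 0.00291). Nptx2, a secreted pentraxin that clusters AMPA receptors, was at 64.2, 55.4 and 96.1 FPKM in SD and at 14.6, 21.2 and 22.3 FPKM in contralateral cortex, a difference of 1.85 (SE 0.16, adjusted p = 0.0418). The mice agreed less for Nptx2 than for Arc. The differences of Nptx2 spanned 0.74 between mice, among the 3 widest spans of the called genes with Gadd45g (0.76) and Ptgs2 (0.69).

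Rgs2, which shortens G protein signals, had 46.4, 40.1 and 48.9 FPKM in SD and 12.4, 11.8 and 11.2 FPKM in contralateral cortex, a difference of 1.89. The small GTPase Arl4d, whose promoter is printed above, was at 85.1, 89.2 and 110 FPKM in SD and 24.3, 25.8 and 27.1 FPKM in contralateral cortex, a difference of 1.85 (SE 0.060). The antiproliferative factor Btg2 had 22.2, 30.1 and 29.1 FPKM in SD, against 4.88, 7.97 and 7.25 FPKM, a difference of 1.96. In each of these genes the SD libraries were at least 2-fold above the contralateral library of the same mouse. Plk2, a polo-like kinase of synaptic homeostasis, started from a higher level, with 73.9, 87.7 and 84.4 FPKM in SD and 38.0, 40.4 and 37.0 FPKM in contralateral cortex, and differed by 1.08 (SE 0.055). Kcnj2, the inward rectifier potassium channel Kir2.1, was low, at 4.72, 7.05 and 6.4 FPKM in SD and 2.07, 2.57 and 2.28 FPKM in contralateral cortex, a difference of 1.21 (adjusted p = 0.0248).

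Of the 36 listed synaptic and effector early genes, 12 were called higher and 1, Lingo3, lower, with a median difference of 0.44. Of all genes, 0.336% were called higher and 0.0382% lower. The pseudokinase Trib1 differed by 1.85, the growth arrest protein Gadd45g by 1.81, the transcriptional coregulator Ifrd1 by 1.09, and the kinases Plk3 and Pim3 by 0.80 and 0.59. Gadd45g was at 71.7, 108 and 105 FPKM in SD and at 28.1, 26.6 and 24.1 FPKM in contralateral cortex, with mouse 1 lowest in SD. Ifrd1 overlaps 3 non-coding genes on its strand in GENCODE M21, so part of its reads may belong to them. Homer1, whose short form is an early gene, was at 29.4, 30.1 and 51.1 FPKM in SD and 20.4, 32.3 and 32.6 FPKM in contralateral cortex, and its gene-level difference of 0.35 was not called (adjusted p = 0.501).

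The phosphatases and inhibitors that end MAP kinase signalling form the third group of rises. Dusp6, which removes the activating phosphates of ERK in the cytoplasm (chr10:99263231-99267489), had 83.0, 106 and 122 FPKM in SD and 9.47, 10.9 and 10.1 FPKM in contralateral cortex, a difference of 3.27 (SE 0.096, adjusted p = 0.00168). Its nuclear relative Dusp5 was at 23.5, 18.3 and 23.7 FPKM in SD and at 4.20, 3.23 and 3.04 FPKM in contralateral cortex, a difference of 2.49. Dusp1, which acts mainly on p38 and JNK, was at 39.1, 60.7 and 52.8 FPKM in SD and 10.3, 13.7 and 14.8 FPKM in contralateral cortex, a difference of 1.93. The phosphatases for ERK and for the stress kinases thus rose in the same libraries. Dusp4 rose by 1.25 and the receptor tyrosine kinase inhibitor Spry2 by 1.17, with 29.4, 32.7 and 38.7 FPKM in SD and 12.3, 16.6 and 15.1 FPKM in contralateral cortex. Of the 16 listed members, 5 were called higher and 0 lower, where 0.336% and 0.0382% of all genes were. The list had a median of 0.43, and medians of 0.62, 0.27 and 0.36 in mice 1, 2 and 3. Errfi1, a feedback inhibitor of the EGF receptor, just missed the call at 31.8, 30.3 and 35.5 FPKM in SD and 19.7, 16.7 and 16.9 FPKM in contralateral cortex (difference 0.86, adjusted p = 0.0517).

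A single gene of prostaglandin synthesis rose. Ptgs2, the inducible cyclooxygenase (chr1:150100031-150108227), had 42.2, 57.4 and 86.1 FPKM in SD and 2.46, 3.03 and 3.23 FPKM in contralateral cortex, a difference of 4.14 (SE 0.14, adjusted p = 0.00237), 17.7-fold on that scale. Of the 10 listed members of its list it alone was called, where 0.336% of all genes were called higher. The other 9 lay between -0.19 and 0.15, and the list median was -0.00. Ptges, the inducible prostaglandin E synthase that acts after it, was at 0.714, 0.849 and 0.765 FPKM in SD and at 0.714, 0.680 and 0.932 FPKM in contralateral cortex, a difference of 0.00 (SE 0.12).

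Cyr61, a secreted matricellular protein (chr3:145646976-145649981), had 37.1, 68.1 and 59.1 FPKM in SD and 3.39, 4.40 and 6.04 FPKM in contralateral cortex, a difference of 3.42 (SE 0.13, adjusted p = 0.00291). It was the only called member of 16 listed matricellular and matrix genes, whose median difference was 0.26. At an unadjusted p under 0.05, 8 of the 16 were higher and 1 lower, where 4.35% and 6.8% of all genes were. The Cyr61 relative Ctgf, at 9.85, 10.7 and 10.5 FPKM in SD and 7.05, 6.83 and 9.02 FPKM in contralateral cortex, differed by 0.42 and was not called (adjusted p = 0.278). Dnajb5, a cochaperone of the Hsp40 family, was the only called member of 18 heat shock genes and chaperones, at 24.8, 24.1 and 26.7 FPKM in SD and 17.4, 16.1 and 16.7 FPKM in contralateral cortex (difference 0.58, adjusted p = 0.0412). The inducible Hsp70 gene Hspa1a differed by 0.11 (adjusted p = 0.572). Each of these lists thus had a single call, where 0.336% of all genes were called higher.

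In total 32 of the 44 rises belonged to one of the 29 lists and 12 to none. Among the 12 were Adrb1, the beta-1 adrenergic receptor, at 15.1, 17.2 and 18.6 FPKM in SD and 4.33, 5.72 and 5.25 FPKM in contralateral cortex, a difference of 1.64 (SE 0.065). Irs2, a substrate of the insulin receptor, differed by 0.82, with 19.9, 20.8 and 24.3 FPKM in SD and 12.4, 11.3 and 12.5 FPKM in contralateral cortex. Cited4, a coregulator of transcription, had the narrowest span of all called genes, 0.04, around a difference of 1.13. Others were Ddit4l (1.04), an inhibitor of mTOR signalling, the corepressor Irf2bp2, Zfp36l2 (0.94), which speeds the decay of AU-rich mRNAs, the deubiquitinase Otud1 (0.88), Lonrf1 (0.63), Id2 (0.42), an inhibitor of bHLH factors, Gm13889 (1.41) and Dnal1. Gm13889 overlaps the coding gene Gm27027 on its strand in GENCODE M21, so its reads cannot be assigned to it with certainty. The 44 rises ranged from 0.42 to 6.76 in difference and from 1.37 to 52.7 FPKM in contralateral mean.

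**Figure D3:**
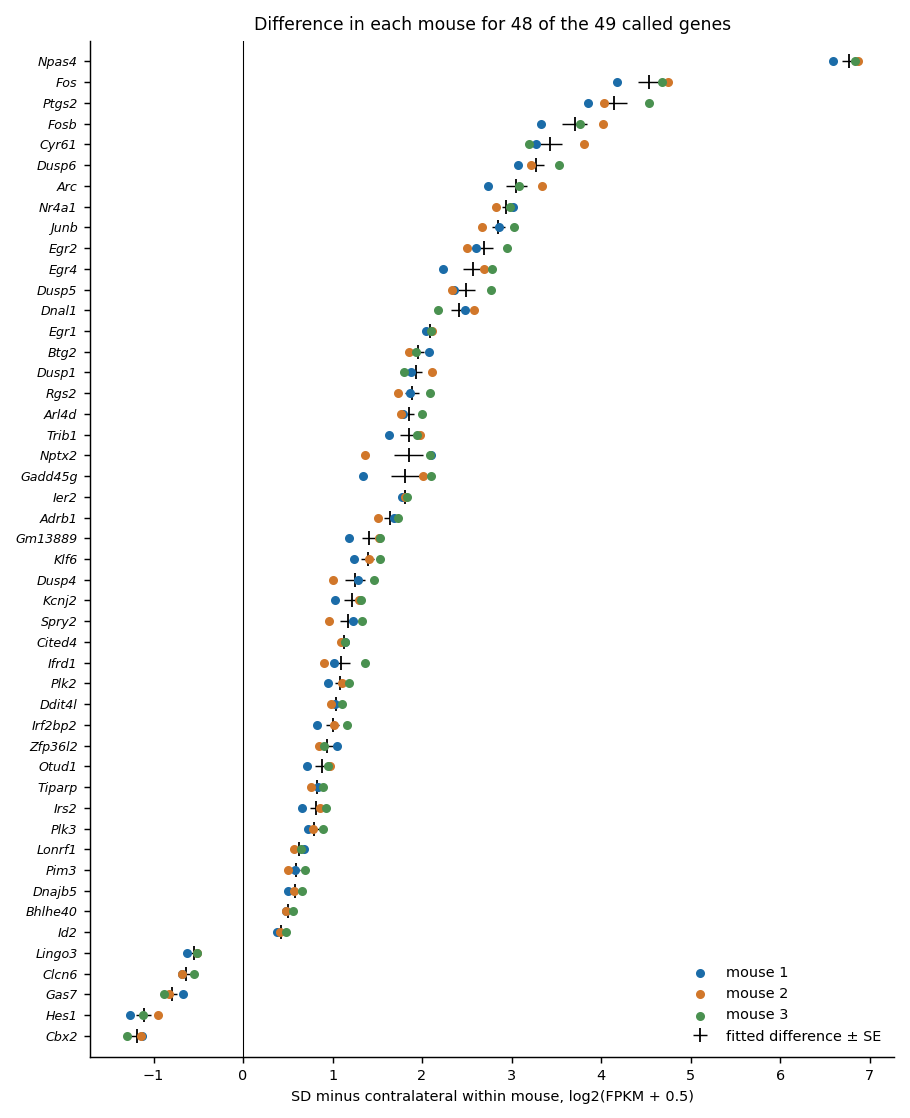
SD minus contralateral difference in log2(FPKM + 0.5) within mouse 1, 2 and 3 (coloured points) and the fitted difference with its standard error (black) for 48 of the 49 called genes, ordered by difference. All points of the rises shown lie above 0 and all points of the 5 falls below it.

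Of the 5 falls, Hes1 encodes a bHLH repressor that is a classical target of Notch signalling (chr16:30064384-30067796). It had 3.19, 4.88 and 3.23 FPKM in SD and 8.38, 9.87 and 7.60 FPKM in contralateral cortex, a difference of -1.11 (SE 0.082, adjusted p = 0.0265), and the sham libraries stood with the contralateral ones at 8.45, 9.43 and 7.90 FPKM. It was the only called member of the 19 listed genes of the Notch pathway, where 0.0382% of all genes were called lower. The list median was 0.04. Hes5, another Notch target, was at 1.79, 1.75 and 1.5 FPKM in SD and at 1.17, 1.40 and 0.937 FPKM in contralateral cortex, a difference of 0.39 that was not called (adjusted p = 0.316).

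Cbx2, a chromatin reader of Polycomb repressive complex 1 (chr11:119022962-119031270), was at 0.601, 0.393 and 0.355 FPKM in SD and at 1.90, 1.46 and 1.60 FPKM in contralateral cortex, a difference of -1.19 (SE 0.098, adjusted p = 0.0381). At these low levels the pseudocount understates the change. Clcn6, a chloride and proton exchanger of late endosomes, had 8.70, 8.52 and 9.25 FPKM in SD and 14.3, 14.0 and 13.7 FPKM in contralateral cortex, a difference of -0.64 (adjusted p = 0.0412). Lingo3, a leucine-rich repeat membrane protein, had 8.57, 10.9 and 8.87 FPKM in SD, against 13.5, 15.7 and 12.9 FPKM, a difference of -0.55 (adjusted p = 0.0495). Its sham libraries, at 10.1, 11.6 and 11.2 FPKM, lay below every contralateral library and overlapped the SD ones.

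A pair of called genes took levels far apart in single libraries outside the comparison. Dnal1, a light chain of axonemal dynein, was at 15.8, 16.9 and 15.7 FPKM in SD and at 2.42, 2.42 and 3.07 FPKM in contralateral cortex, a difference of 2.41 (SE 0.094, adjusted p = 0.00291). The sham libraries, at 2.16, 7.33 and 15.6 FPKM, ran from below the lowest contralateral library to just under the lowest SD library. After KCl it had 3.21, 2.80 and 6.92 FPKM in SD and 16.9, 18.1 and 2.99 FPKM in contralateral cortex, lower in SD in KCl mice 1 and 2 and higher in KCl mouse 3, and it was not called (adjusted p = 0.563). Gas7, an adaptor protein of neurite outgrowth, was at 27.6, 25.9 and 24.6 FPKM in SD and at 44.1, 46.6 and 46.0 FPKM in contralateral cortex, a difference of -0.80 (SE 0.056, adjusted p = 0.0224). Its sham libraries had 45.3, 25.8 and 41.7 FPKM, and after KCl it had 46.2, 9.22 and 47.7 FPKM in SD and 7.65, 43.7 and 44.2 FPKM in contralateral cortex. In both genes high and low levels occurred within the sham group and within a KCl group, and Gas7 was not called in a fit of all 9 optogenetic libraries with the mouse as a random block.

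No member of the list of 21 neurotrophic factors and neuropeptides was called, with a median of 0.05. At an unadjusted p under 0.05, 7 of the 21 were higher and 2 lower, where 4.35% and 6.8% of all genes were. Bdnf, the activity-dependent neurotrophin, was at 7.73, 11.2 and 16.5 FPKM in SD and at 4.71, 6.01 and 7.02 FPKM in contralateral cortex, so that mouse 1's SD library lay only just above the highest contralateral one, and its difference of 0.89 (SE 0.11) had an adjusted p of 0.108. Nrn1, which promotes neurite growth, was at 124, 138 and 152 FPKM in SD and at 85.3, 104 and 97.1 FPKM in contralateral cortex, without overlap, a difference of 0.53 (adjusted p = 0.0711). Vgf, a secreted neuropeptide precursor, was at 64.3, 87.3 and 30.9 FPKM in SD, against 16.4, 26.1 and 25.7 FPKM. Mouse 3 had a far smaller difference of Vgf than the other mice, and its adjusted p was 0.333.

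The 17 listed clock genes, a list that does not hold the called Bhlhe40, had 0 calls and a median of 0.03. Per1, a clock gene that is also induced by CREB, came nearest, at 26.4, 26.8 and 39.3 FPKM in SD and 13.6, 11.6 and 12.2 FPKM in contralateral cortex, a difference of 1.25 (adjusted p = 0.0911). The clock output gene Dbp differed by -0.35 (adjusted p = 0.193). Of 15 listed genes of inflammation and NF-kappaB, 0 were called and the median was 0.02, while 12 of the 27 genes on that list, among them Tnf, Il6, Ccl2 and Nlrp3, are not in the table of this comparison. The chemokine Ccl7 was listed at 0 in all contralateral libraries and at 1.03, 0.682 and 0.742 FPKM in SD (adjusted p = 0.0521). Nfkbiz, an atypical inhibitor of NF-kappaB, was at 2.17, 2.50 and 2.62 FPKM in SD and at 0.949, 0.785 and 0.926 FPKM in contralateral cortex, a difference of 1.08 (adjusted p = 0.0545). Both groups of values stood apart, but neither gene passed the test. Hmgb1, a nuclear protein released as a danger signal, and the pore protein Panx1 differed by -0.07 (SE 0.090) and 0.04 (SE 0.099).

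Of 28 listed genes of potassium and ion homeostasis, a list that does not hold Kcnj2, 0 were called, the median was 0.03, and the differences ran from -0.38 to 0.23. Kcnj10, the glial potassium channel Kir4.1, was at 35.3, 37.7 and 39.1 FPKM in SD and at 36.1, 39.1 and 41.9 FPKM in contralateral cortex, a difference of -0.06 (SE 0.037). Slc1a2, the main glutamate transporter of astrocytes, had 228, 222 and 228 FPKM in SD, against 170, 229 and 229 FPKM, a difference of 0.12 (SE 0.10). The low contralateral library of mouse 1 alone gave that value its sign. The lists of glucocorticoid-responsive genes (14 listed, median 0.05), oxidative stress (14, -0.08), hypoxia and glycolysis (22, 0.03), interferon-stimulated genes (16, -0.07) and glutamate and GABA receptors (35, 0.00) had 0 calls each. The glucocorticoid list does not hold the called Dusp1. Within the hypoxia list, the coregulator Cited2 was at 11.0, 14.8 and 13.3 FPKM in SD and at 5.82, 5.32 and 6.73 FPKM in contralateral cortex (difference 1.06, adjusted p = 0.0874).

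**Figure D4:**
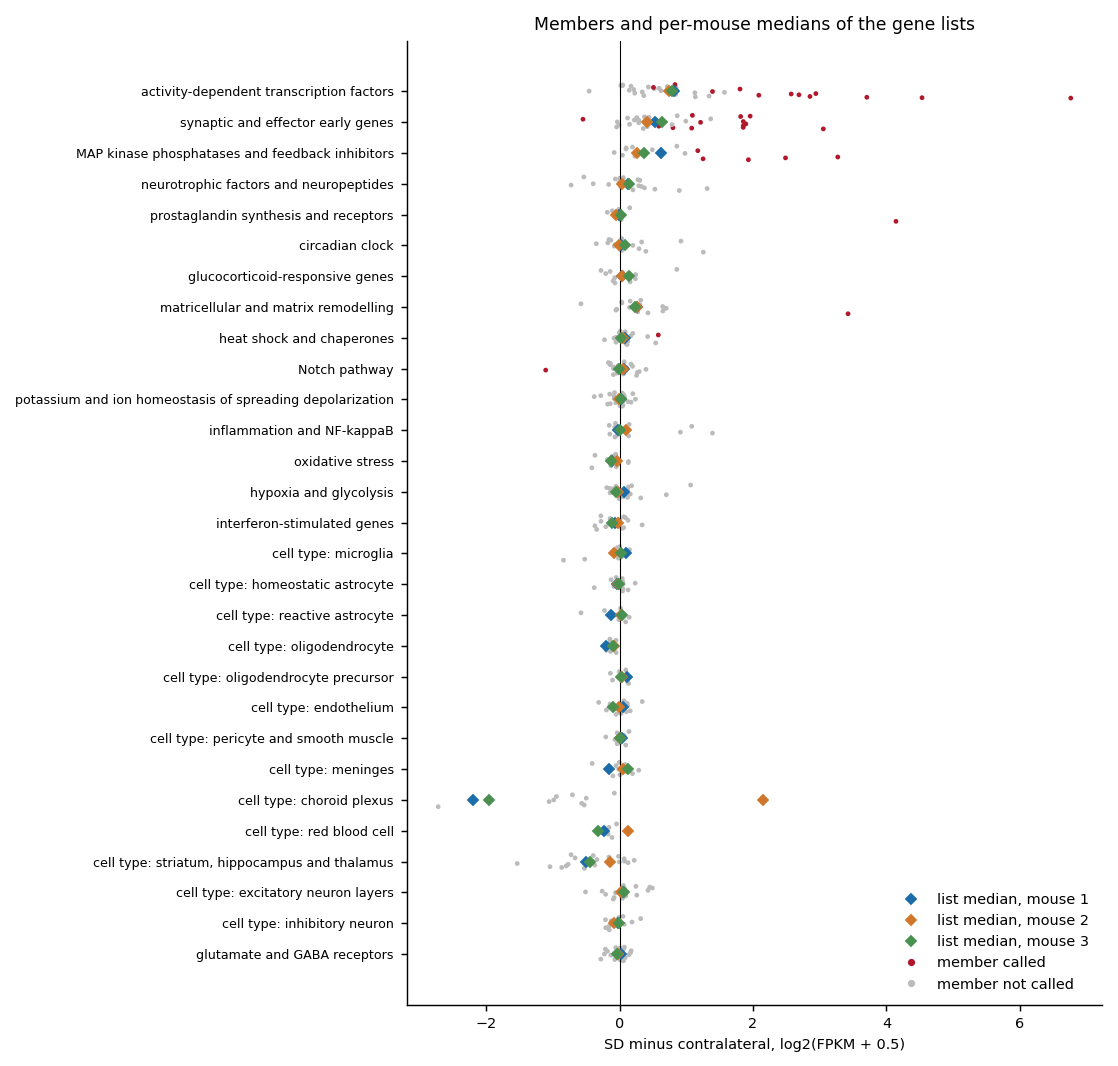
Differences in log2(FPKM + 0.5) of the members of each of the 29 gene lists (small points, red where called) and the median of each list within mouse 1, 2 and 3 (diamonds). The 3 lists of early genes and MAP kinase inhibitors have medians above 0 in every mouse, and the choroid plexus list has medians of -2.20, 2.14 and -1.96.

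Marker genes of cortical cells were present in all libraries, as the label cortex requires. Slc17a7, the vesicular glutamate transporter of cortical excitatory neurons, was at 120, 114 and 117 FPKM in SD and at 109, 115 and 112 FPKM in contralateral cortex. No member of the lists for microglia (14 listed), homeostatic astrocytes (13), reactive astrocytes (7), oligodendrocytes (12), their precursors (9), endothelium (17), pericytes and smooth muscle (11), meninges (13), red blood cells (5), excitatory layers (18) or inhibitory neurons (13) was called. Gfap, a marker of reactive astrocytes, was at 28.3, 37.2 and 35.0 FPKM in SD and at 34.6, 28.9 and 30.6 FPKM in contralateral cortex. Of the 12 oligodendrocyte markers, 10 were lower in all 3 mice and 8 had an unadjusted p under 0.05, with a median of -0.14, against the background of 22.1% and 6.8% given above. The haemoglobin gene Hbb-bs was at 68.5, 105 and 121 FPKM in SD and at 95.6, 99.9 and 140 FPKM in contralateral cortex, with overlap between the hemispheres. In bulk tissue, fewer cells of a type and less RNA per cell cannot be told apart.

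No marker of tissue next to the cortex was called. Of 18 listed genes of striatum, hippocampus and thalamus, 10 were lower at an unadjusted p under 0.05, where 6.8% of all genes were, and the list median was -0.50, -0.14 and -0.45 in mice 1, 2 and 3. Summed over the list, the SD libraries had 205 to 324 FPKM, the contralateral ones 398 to 438 FPKM and the sham ones 172 to 364 FPKM. All of these 10 but Rora, which marks the thalamus, are genes of striatal neurons. Pde10a, a phosphodiesterase, was at 15.2, 10.3 and 5.56 FPKM in SD and at 21.5, 35.0 and 31.6 FPKM in contralateral cortex, and the adenosine receptor Adora2a at 7.90, 10.02 and 4.08 FPKM in SD, against 14.3, 17.6 and 12.8 FPKM. The opioid precursor Penk followed them at -0.73. Whether the share of striatal tissue bears on the 5 falls or on other genes was not tested. The choroid plexus marker Ttr was at 5.07, 465 and 7.06 FPKM in SD and at 597, 23.4 and 395 FPKM in contralateral cortex, high on 1 side of each mouse but not on the same side. It was not called with all mice (adjusted p = 0.685), but without mouse 2 it was, at -6.23. Together with 5 further markers, 6 of the 9 listed choroid plexus genes were then called lower. Of all 13099 genes, 16 were called lower in that fit.

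Most of the rises were also seen against sham mice. Of the 44, 35 were also called higher in SD than in sham in a fit of the 9 optogenetic libraries, where 0.401% of 12975 genes were called higher, and 0 were called between contralateral and sham, where 0.00771% of genes were called in either direction. At an unadjusted p under 0.05, 6 of the 44 differed between contralateral and sham, where 5.79% of genes did. Both comparisons share the sham libraries with each other, and each shares libraries with the hemisphere difference. The 44 rises had a median difference of 1.42 for SD minus sham and of -0.18 for contralateral minus sham. Over all genes these medians were -0.017 and 0.0058. The contralateral level was below sham in 41 of the 44 rises, and in 6217 of the 12975 genes. The 44 genes were called on the same SD and contralateral libraries, so these values are a description.

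The sham libraries were not alike. Thy1, whose promoter and neighbouring sequence the transgene uses, was at 412, 601 and 645 FPKM in SD, 393, 615 and 592 FPKM in contralateral and 426, 163 and 374 FPKM in sham cortex, and at 149 to 165 FPKM in the KCl mice. The library labelled sham replicate 2 thus stood at the level of the mice without the transgene, and whether it carries the transgene was not tested. Without it 34 genes were called higher and 4 lower in SD than in sham, against 52 and 8 with it. Among the 44 rises, sham replicate 3 was the highest of the 3 sham libraries in 31, and among all 13099 genes in 4400. Npas4 was at 1.99, 1.41 and 9.90 FPKM in sham replicates 1 to 3, Fos at 9.19, 5.89 and 23.1 FPKM and Dusp6 at 14.1, 10.01 and 27.9 FPKM. Arc did not share that pattern, at 21.5, 19.5 and 19.2 FPKM. Each of these sham values was still below the lowest SD library. Of the 5 falls, Hes1, Cbx2 and Clcn6 were called lower in SD than in sham as well, at -1.11, -1.02 and -0.60, where 0.0617% of genes were called lower.

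KCl set off the same number of waves without light or a listed transgene. The same fit of the KCl mice called 30 of 13172 genes higher (0.228%) and 1 lower (0.00759%), and 23 genes rose in both, which is 52.3% of the rises after light and 76.7% of those after KCl. Of the 44 rises after light, 42 were higher in all 3 KCl mice, where 13.6% of genes were. Dnal1 and Dnajb5 were the exceptions. Jun, Per1 and Cited2 were among the 7 genes called higher after KCl but not after light.

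Side by side, Npas4 differed by 6.76 after light and by 6.66 after KCl, Fos by 4.53 and 4.25, Ptgs2 by 4.14 and 3.88, Arc by 3.05 and 2.99 and Cyr61 by 3.42 and 3.63. In FPKM, the SD hemispheres of Npas4 had 181, 240 and 256 after light and 178, 177 and 221 after KCl, and the contralateral ones 1.38, 1.56 and 1.75 after light and 1.16, 1.40 and 1.63 after KCl. Among the falls, Hes1 differed by -1.11 after light and -0.82 after KCl and Cbx2 by -1.19 and -0.98, while Clcn6 was at -0.64 and -0.12. The KCl mice did not agree in sign for Clcn6, with differences of -0.20, -0.59 and 0.43 in KCl mice 1, 2 and 3.

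The interaction of side and system, fitted over 12 libraries of 6 mice, called 0 of 12901 genes (0%). Before adjustment, p was under 0.05 for 8.36% of genes, 4.33% in the direction of light and 4.04% in that of KCl. Of the 44 rises, which were called on the libraries after light, 7 were among them: Dusp6 exceeded the KCl difference by 0.43 (SE 0.14, adjusted p = 0.562), Fosb by 0.50 (SE 0.20), Dusp5 by 0.52 (SE 0.20), Ifrd1 by 0.43 (SE 0.12), Dnajb5 by 0.38 (SE 0.11), Pim3 by 0.22 (SE 0.088) and Dnal1 by 3.62 (SE 0.90). For Npas4 the interaction was 0.10 (SE 0.098), for Arc 0.06 (SE 0.16) and for Cyr61 -0.20 (SE 0.21). The smallest interaction p belonged to Ppig, a nuclear cyclophilin, at 8.18, 6.93 and 10.5 FPKM in SD and 14.4, 10.9 and 14.9 FPKM in contralateral cortex after light, and at 11.8, 16.8 and 12.6 FPKM in SD and 9.37, 11.9 and 10.3 FPKM in contralateral cortex after KCl. Its interaction of -0.99 had an adjusted p of 0.436, and those of the erythropoietin receptor Epor (-1.09), Tmem260 (-0.88) and Nwd1 (0.72) had 0.557.

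Left out in turn, KCl mouse 1 changed this count. Without it, 43 of the 12901 genes were called lower and 3 higher after light than after KCl. Among the 43 were 7 of the 18 markers of striatum, hippocampus and thalamus, such as Drd2 at -4.23 and Adora2a at -4.14, and among the 3 was Egr1 at 0.47 (adjusted p = 0.0483). Drd2, the D2 dopamine receptor of striatal neurons, was at 7.64, 7.48 and 10.9 FPKM in SD and at 9.20, 0.287 and 0.592 FPKM in contralateral cortex after KCl, so KCl mouse 1 stood apart from the other mice. The part of striatal tissue in the result was not tested.

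**Figure D5:**
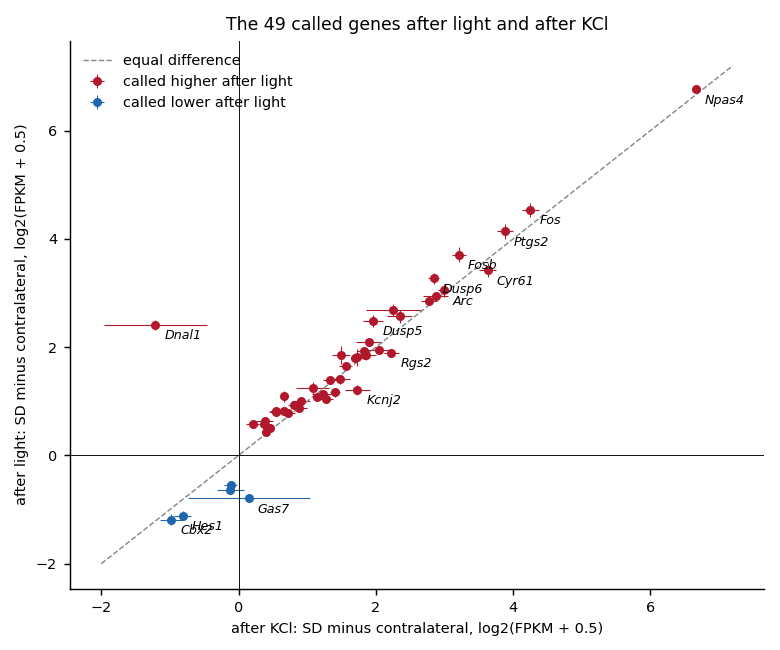
SD minus contralateral difference after light (y axis) and after KCl (x axis), both in log2(FPKM + 0.5) with standard errors, for the 49 genes called after light (red higher, blue lower). Most genes lie near the dashed line of equal difference, Npas4 at 6.76 and 6.66, while Dnal1 is at 2.41 and -1.21.

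The loci of the rises after light were short, a feature that played no part in calling them, with a median span of 5.46 kb, against 25.2 kb over all listed genes, and 34 of the 44 (77.3%) were under 10 kb, against 24.0% of all. The values that follow entered the call and are a description. The contralateral level of the rises had a median of 8.68 FPKM, against 5.77 FPKM over all genes. Mouse 3 had the largest difference in 28 of the 44, mouse 2 in 10 and mouse 1 in 6, and the median rise was 1.48, 1.51 and 1.76 in mice 1, 2 and 3. Of all 13099 genes, mouse 3 had the largest difference in 4079, mouse 2 in 4968 and mouse 1 in 4052. Over the 44 genes the span between mice had a median of 0.29, against 0.23 over all listed genes.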

How the data were processed

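Cortical RNA-seq libraries of 3 mice with optogenetic SD (6 libraries), 3 sham mice and 3 KCl mice (6 libraries) were used, grouped and paired by mouse from the sample titles. The authors deposited FPKM per gene. Per the submitters' processing notes, StringTie and the build GRCm38 were used, with no version given. The log2 group columns and log2 fold changes are the authors' deposited values on log2(FPKM + 1), and their deposited p-values equalled an unpaired equal-variance test for 100.0% of genes and a paired one for 0.0% (tolerance 1e-06). Their q-values were used only as an alternative.

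From the FPKM, log2(FPKM + 0.5) was fitted with limma 3.58.1 (R 4.3.3, moderated variance with a trend on the mean, two-sided), the mouse as a block and Benjamini-Hochberg adjustment over all listed genes. The labels number hemispheres of the same mouse alike, so they are paired. The deviations of paired libraries correlated at 0.140, -0.0835 and 0.0137 for mice 1, 2 and 3, and those of libraries of different mice at -0.162 to 0.158, so the pairs correlated no better than non-pairs. The mouse is the replicate, and the p-values rest on the spread of 3 mice together with a variance prior estimated over all genes. The SD hemisphere minus sham and contralateral minus sham differences came from a fit of 9 libraries, and the interaction with KCl from a fit of 12. Simulated data were used to test the fits.

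The rule for named genes took 41 genes: the 12 largest rises and up to 8 largest falls among called genes with an established symbol, up to 3 called members of each list by p, the 3 called genes with the widest and the 3 with the narrowest span over mice, the 4 smallest interaction p against KCl, and 15 genes given by name. The 23 called genes outside it, and the members of lists named for being near the threshold, were chosen after their values were seen. The comparison and the gene lists were chosen with earlier results of these data known. Annotation was GENCODE M21 (99.8% of IDs matched), and promoters were RefSeq's. Results for a few genes are not reported here.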

Additional observations from a re-analysis of the deposited data

How the results depend on the processing

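Across 1075 recomputed values, 821 of 949 single values kept direction and side of the threshold. Another 95 missed the threshold, 66 of them with a mouse left out, and 1, Ttr, passed it. The remaining single values were classed as moved (28) or as reversed in direction (4). With 3 mice, calls near the threshold rest on each mouse: leaving out 1 mouse gave 26 to 33 rises and 1 to 16 falls. Without the replicate block, which ignores the pairing of hemispheres, 57 rises and 4 falls were called, 40 and 3 of them also called with it. With all 9 optogenetic libraries and the mouse as a random block 99 rises and 32 falls were called, with a constant prior variance 31 rises and 1 fall. The authors' deposited q-values gave 10 rises and 3 falls. For SD against sham, leaving out a library gave 33 to 55 rises and 4 to 9 falls, and the replicate block 50 and 6. For contralateral against sham these were 0 to 2 and 1 to 3, and 0 falls with the replicate block. For light against KCl they were 0 to 3 and 0 to 43. Small differences turned sign when a mouse was left out: Slc1a2 ranged from -0.0246 to 0.208, Gfap from -0.0473 to 0.275, Panx1 from -0.0621 to 0.0940 and Hmgb1 from -0.141 to 0.0525. Apart from what the omitted samples or the model's construction change, the cause was not tested. Pseudocounts of 0.1 and 1 gave 44 and 43 rises with 4 and 5 falls. Depth cannot be judged from FPKM.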

Other observations

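A few genes outside the called set were listed at 0 in 1 or more of the 6 libraries although another reached at least 5 FPKM, which applied to 6 listed genes, named here after their values were seen. The linker histone gene H1fx was at 17.7, 19.1 and 20.2 FPKM in SD and at 0, 20.5 and 0 FPKM in contralateral cortex (adjusted p = 0.413), with sham libraries at 21.6, 20.0 and 0 FPKM. The chemokine gene Ccl27b was at 0, 0 and 4.22 FPKM in SD and at 4.88, 5.07 and 4.42 FPKM in contralateral cortex (adjusted p = 0.403). None of the 49 called genes was listed at 0 in any of the 6 libraries.

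The authors' deposited table also marked 3 lower genes at a q-value of 0.0498, none of them called here: 2310057M21Rik at -0.15, Irak1bp1 at -0.24 and Thsd7a at -0.24 on the authors' log2(FPKM + 1) scale.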
